A study of Drosophila melanogaster with 6 samples.

Results

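To follow the genes that anchor the contractile apparatus of the fly through aging, 10 genes were taken from the microarray comparison of young and old flies. These were Actn, Zasp52, Zasp66, Zasp67, tmod and Msp300, grouped here as Z-disc genes, and rhea, mys, if and Ilk, grouped as muscle attachment genes. Members were found by gene symbol, with every probe set that carries the symbol, which gave 10 of the 14535 gene symbols in the table and 19 of the 18769 probe sets tested. All samples were whole flies of the isogenic y(1), w67c23(2) stock, cultured at 20 °C, and each sample was a pool of 100 females and 100 males. The young age group was 3 days old and the old age group 45 days old, with 3 samples each hybridized to GeneChip Drosophila Genome 2.0 arrays. Labels and methods give both sexes, whereas the results text of the study speaks of females. Samples are named Young1 to Young3 and Old4 to Old6 after the columns of the deposited table. No genome positions or sequences are given, because the table names no genome build and no sequence tables were used here.

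Muscle contracts by sliding actin thin filaments along myosin thick filaments within repeating units, the sarcomeres. The Z-disc borders each sarcomere, where alpha-actinin and PDZ-domain proteins of the Zasp family tie the thin filaments of neighbouring sarcomeres together. At its ends the muscle is held to tendon cells of the cuticle by integrins, which bind the extracellular matrix outside the cell and, through talin and integrin-linked kinase, the actin cytoskeleton inside. In flies these adhesion proteins are not restricted to muscle, and they also act in epithelia, the ovary and other tissues.

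All values are log2 expression values. Across the 18769 probe sets they ran from 1.51 to 15.05, and array medians differed by 0.02 at most. Of these probe sets, 54.8% had both age group means under log2 4, taken here as too low to be separated from background. The array medians therefore lie in this low range and do not compare the arrays at higher levels. Markers of other cell types were summed on the linear scale, each gene being represented by its brightest probe set. The 12 eggshell and follicle cell genes on the array summed to between 157699 and 164554 in the young samples, but to 75245 in Old4, 23903 in Old5 and 1228 in Old6, and 2 of the 12 were called, both lower. The 14 thin filament genes and 9 genes of the thick and connecting filaments, which mark muscle, summed to between 227431 and 256837 in young samples, to 118948 in Old4, 84696 in Old5 and 85549 in Old6. Each had a group mean of log2 4 or more. Sums over 7 hemocyte genes were 5776 to 7343 in young and 7802 to 8267 in old samples (1 of 7 called, lower), with NimC1, He and eater under log2 4 in both age groups. Most of each hemocyte sum is crq, with group means of 12.64 in young and 12.85 in old samples. The next brightest, Hml, was at 7.58 and 8.27. For 7 neuronal genes the sums were 5751 to 8426 and 4543 to 5108 (0 called), with only Syt1 and cpx above log2 4. For 5 fat body genes the sums were 20011 to 31503 and 23810 to 24771 (0 called by the brightest probe sets). The probe set summed for Fbp1 also carries the symbol CG5335. Another probe set of Fbp1, 1638338_a_at, was called lower (-5.60, FDR 0.00565), with group means of 7.97 in young and 2.36 in old samples. The part of these cell types in the results on the members was not tested.

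By limma, 5 of the 19 probe sets fell with age at an FDR under 0.05, and 0 rose. They represent Actn, Zasp52, tmod, Msp300 and if. Over all probe sets, including the 54.8% under log2 4 in both age groups, 5.82% fell and 6.91% rose at this FDR. Calls required more than a 2-fold difference together with a p below 0.05 and an FDR below 0.15. These 3 criteria were met by 1 member probe set lower in old flies, that of Msp300 1625210_a_at, and by 0 higher, against 2.96% and 3.45% of all probe sets. With testing limited to the 7913 probe sets at log2 6 or more in an age group, 6.29% were called lower and 7.01% higher. Old values lay entirely below the young ones in 8 of the 19 and entirely above in 4, whereas 7 overlapped. The 8 include Zasp67 and the 4 include Msp300 1632945_at, both under log2 4 in all samples. The corresponding shares of all probe sets were 12.6% and 16.1%. In whole flies, fewer muscle cells and less RNA per muscle cell cannot be told apart. Precision is limited by the number of arrays. Of the members, 11 of the 19 probe sets, for 8 of the 10 genes, had a group mean of log2 6 or more. Zasp67 and Msp300 had none.

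**Figure D1:**
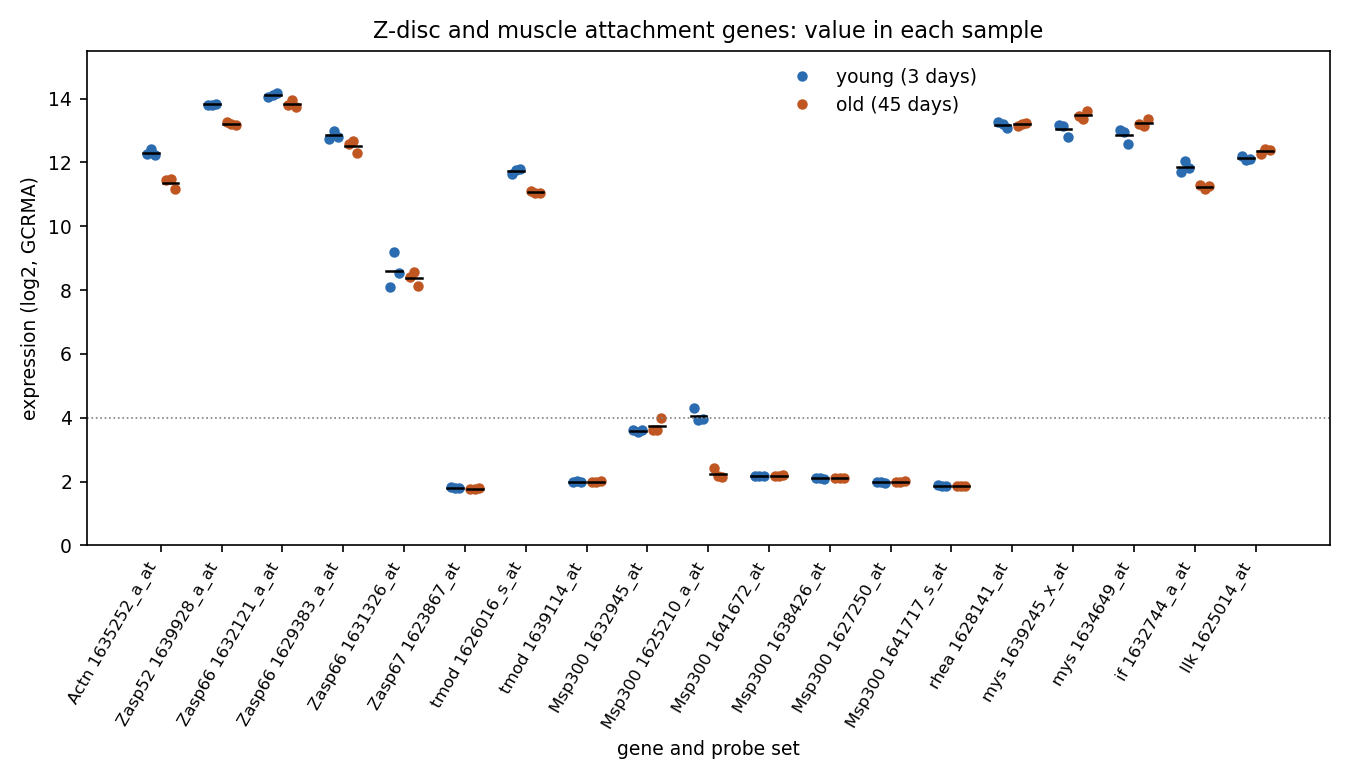
Expression (log2, vertical axis) of each of the 19 probe sets (horizontal axis) in each sample, with young samples in blue and old samples in orange; black bars are group means and the dotted line marks log2 4. Actn, Zasp52, tmod 1626016_s_at and if have old points entirely below the young points, both mys probe sets and Ilk have them entirely above, and 5 of the 6 Msp300 probe sets, Zasp67 and tmod 1639114_at lie under the line in all samples.

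Actn (FBgn0000667) encodes alpha-actinin, the protein that crosslinks thin filaments of opposite polarity at the Z-disc. Its probe set 1635252_a_at had values of 12.26, 12.42 and 12.25 in the young samples (in the order Young1 to Young3, as in all such sentences) and of 11.45, 11.48 and 11.18 in the old samples (Old4 to Old6). All old samples were therefore below all young samples, with Old6 the lowest. Actn fell by 0.94 on the log2 scale (SE 0.10, 95% CI -1.20 to -0.69, FDR 0.00690), or 1.92-fold, short of the fold criterion. With each sample left out in turn the difference ranged from -0.998 to -0.85 and the FDR from 0.0154 to 0.0269.

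Zasp52 (FBgn0265991, probe set 1639928_a_at), a PDZ and LIM domain protein that binds alpha-actinin, had the smallest SE of the genes that fell. It was at 13.81, 13.80 and 13.84 in the young samples and at 13.26, 13.21 and 13.18 in the old samples. The range within an age group was 0.09 at most. Zasp52 fell by 0.60 (SE 0.03, 95% CI -0.67 to -0.53, FDR 0.00114), or 1.52-fold, and the difference stayed between -0.62 and -0.58 whichever sample was left out.

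Zasp66 (FBgn0035917), a smaller PDZ domain protein of the Z-disc, is measured by 3 probe sets. The brightest, 1632121_a_at, was at 14.06, 14.12 and 14.17 in young samples and at 13.81, 13.96 and 13.74 in old samples. These groups did not overlap, yet the difference of -0.28 (SE 0.07, 95% CI -0.45 to -0.10) had an FDR of 0.0693 and did not pass. The side of the FDR of 0.05 changed with the fit, while the fold stayed under 2. The FDR of this probe set was 0.0362 without Old5 and 0.0136 with a trended and robust variance prior. It was 0.0380 when testing was limited to probe sets reaching log2 6 in an age group. In the other alternatives it stayed above 0.05, at 0.137 with the methods' t-test and up to 0.187 without Old4. Probe set 1629383_a_at was at 12.74, 12.99 and 12.81 in young samples and at 12.58, 12.67 and 12.30 in old samples, again without overlap and with Old6 the lowest. Its difference was -0.33 (SE 0.12, FDR 0.191). The third probe set, 1631326_at, was scattered in young samples, at 8.09, 9.20 and 8.54, and at 8.41, 8.58 and 8.13 in old samples, a difference of -0.24 (SE 0.32, FDR 0.982) that turned to 0.06 without Young2.

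Zasp67 (FBgn0036044, probe set 1623867_at), the third family member, was at the low end of the scale in every sample. Its single probe set was at 1.83, 1.80 and 1.80 in young samples and at 1.77, 1.78 and 1.79 in old samples. Although the groups do not overlap, the difference was -0.03 (95% CI -0.06 to 0.01, FDR 0.337), and at this level the array gives no measure of whether the gene changed.

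The size of the age difference was set against that of another gene of the same sample for 19 pairs of genes, each by a two-sided exact permutation test, which cannot give a p under 0.1 for 3 against 3 samples. The pairs were chosen after values were seen, and the share without overlap among gene pairs at large was not computed. In 14 of the 19 the age groups did not overlap, which by itself fixes p at 0.1 (exact permutation test, 0.136 after Benjamini-Hochberg adjustment over the 19). Where both genes of a pair already had the groups apart in opposite directions, the lack of overlap was fixed in advance. The difference of Actn minus that of Zasp66 was -0.67, and that of Actn minus Zasp52 was -0.34. For Zasp52 minus Zasp66 it was -0.32, and for tmod minus Zasp66 -0.39. The age groups did not overlap in any of these 4.

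Tropomodulin (tmod, FBgn0082582) caps the pointed ends of thin filaments, at the end opposite to the Z-disc. Probe set 1626016_s_at was at 11.63, 11.77 and 11.80 in young samples and at 11.10, 11.06 and 11.03 in old samples. The old samples lay within 0.07 of each other and below all young ones. The probe set fell by 0.67 (SE 0.05, 95% CI -0.80 to -0.53, FDR 0.00344), or 1.59-fold. The other probe set, 1639114_at, stood between 1.98 and 2.02 in all 6 samples, under the level at which a change could be seen. The age difference of the pair differed by 0.67 (SE 0.06, FDR 0.00543 over 2760 pairs of probe sets of one gene), which was under the fold criterion. The gene sals, whose product promotes the lengthening of thin filaments from the pointed end in flies, was at 7.57, 7.37 and 7.71 in young and at 6.63, 7.08 and 6.34 in old samples. Its difference of -0.87 (SE 0.22) did not pass (FDR 0.0742). The differences of tmod and sals were 0.20 apart and overlapped between the groups (p = 0.6, exact permutation test).

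Msp300 (FBgn0261836) encodes a giant nesprin that links nuclei and mitochondria to the Z-disc and the cytoskeleton in fly muscle. It has 6 probe sets, and 5 of them were under log2 4 in all samples. The sixth, 1625210_a_at, was at 4.31, 3.92 and 3.96 in young samples and at 2.42, 2.18 and 2.14 in old samples. The groups were far apart relative to their spread, and the difference of -1.82 (SE 0.14, 95% CI -2.18 to -1.46, FDR 0.00336) was a 3.54-fold fall, the only call among the members. The whole change took place near the low end of the scale. With values under log2 4 raised to 4 the difference was -0.10 and the FDR 0.419. The other 5 probe sets differed by between -4.93e-03 and 0.15, and none passed. Probe set 1632945_at was the only one of them above log2 3, at 3.60, 3.56 and 3.62 in young samples and at 3.63, 3.63 and 3.98 in old samples (FDR 0.567).

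Pairs of probe sets of one gene were compared on their difference within each sample, across 2760 such pairs of the table, of which 6.88% were called by the same 3 criteria. Among the members 5 of 20 pairs were called. All 5 pair Msp300 1625210_a_at with one of the other Msp300 probe sets, with differences between 1.82 and 1.98. The 5 share that probe set and are not separate results. The other 5 were under log2 4 in both age groups, where a change cannot be seen. The 3 pairs of Zasp66 and the pair of mys were not called, and the largest difference in these 4 was 0.09 (Zasp66, 95% CI -0.51 to 0.70).

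Nesprins join SUN-domain proteins of the nuclear envelope. The SUN gene koi rose by 0.42 (SE 0.05, FDR 0.0121), with young samples at 11.31, 11.36 and 11.17 and old samples at 11.73, 11.66 and 11.69. The gene klar, which encodes another linker between nucleus and cytoskeleton, fell by 0.52 (SE 0.05, FDR 0.00629), from 12.70 ± 0.03 to 12.18 ± 0.09 (SD, n = 3). Both changes were under 2-fold. In the list of 4 genes made up of koi, klar and the lamin genes Lam and LamC, 1 fell and 2 rose at an FDR under 0.05, and 0 were called. The other rise was that of LamC (0.38, FDR 0.0365). Of all probe sets, 5.82% fell and 6.91% rose at this FDR.

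**Figure D2:**
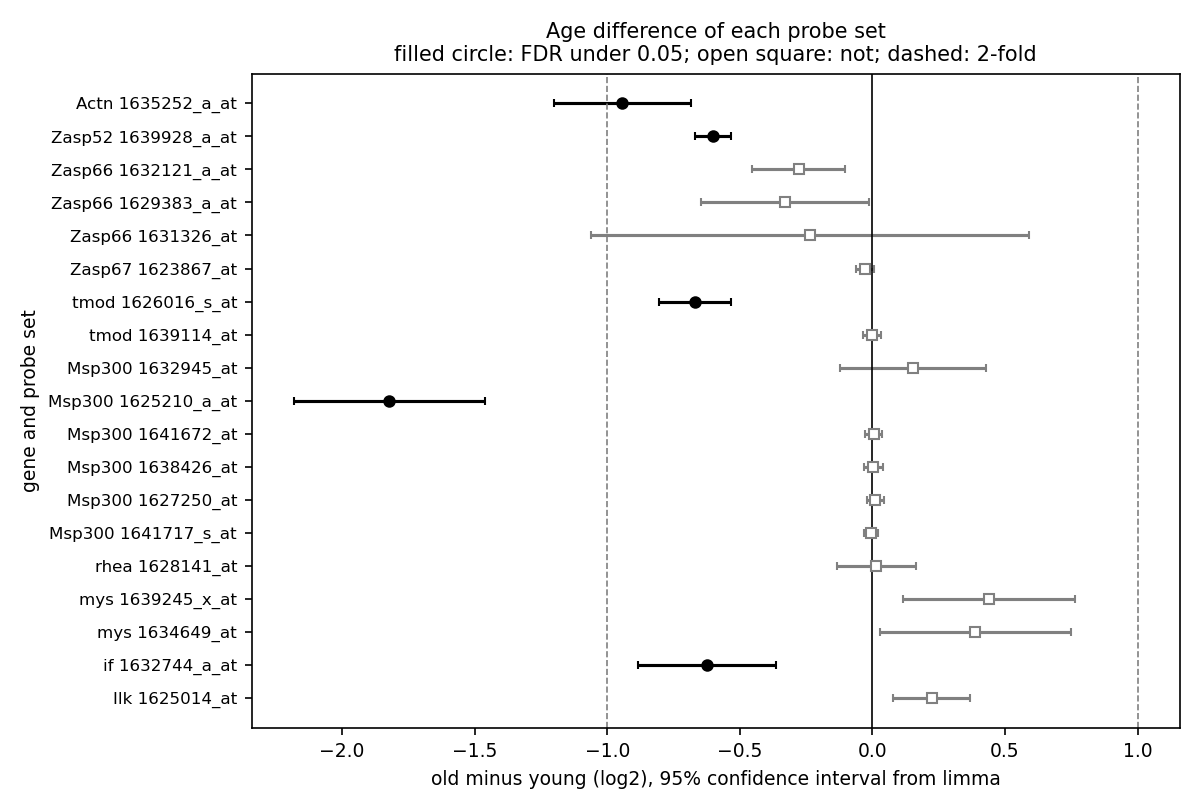
Old minus young difference (log2, horizontal axis) of each of the 19 probe sets (vertical axis) with its 95% confidence interval from limma. Filled circles passed an FDR under 0.05, open squares did not, and dashed lines mark a fold difference of 2. Only Msp300 1625210_a_at at -1.82 lies beyond a dashed line, and Actn at -0.94 comes next.

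The attachment genes did not share a direction. The only one to pass was if (inflated, FBgn0001250, probe set 1632744_a_at), which encodes the integrin alpha subunit that pairs with the beta subunit Mys on the muscle side of the attachment. Its probe set was at 11.71, 12.05 and 11.84 in young samples and at 11.30, 11.16 and 11.26 in old samples. All old samples were below all young ones, and Old6 lay between Old4 and Old5. The gene fell by 0.62 (SE 0.10, 95% CI -0.89 to -0.36, FDR 0.0210), or 1.54-fold. The direction held in every alternative, but the FDR rose above 0.05 without Young3 (0.0611), Old4 (0.0583), Old5 (0.0810) or Old6 (0.0845), with the methods' t-test (0.0560) and with values under log2 4 raised to 4 (0.0554).

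For mys (myospheroid, FBgn0004657), the main integrin beta subunit of the fly, the order of the groups was the opposite. Probe set 1639245_x_at was at 13.17, 13.14 and 12.79 in young samples and at 13.45, 13.37 and 13.60 in old samples, a difference of 0.44 (SE 0.13, 95% CI 0.11 to 0.76, FDR 0.103). Probe set 1634649_at was at 13.01, 12.96 and 12.58 and at 13.21, 13.14 and 13.37, a difference of 0.39 (SE 0.14, FDR 0.177). The x in the name of the former marks probes that may also match other transcripts. Neither probe set passed, and Young3 was the lowest sample in both. Without Young3 the differences were 0.32 and 0.25. For 1639245_x_at the FDR was 0.0424 with a trended and robust variance prior and 0.0423 with probe sets of log2 6 or more only.

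Talin, the product of rhea (FBgn0260442, probe set 1628141_at), connects integrin tails to actin. Its values were 13.26, 13.19 and 13.08 in young samples and 13.13, 13.20 and 13.25 in old samples. The groups overlapped throughout, and the interval of the difference of 0.02 ran from -0.13 to 0.16 (FDR 1). Ilk (FBgn0028427, probe set 1625014_at), the scaffold kinase of the same complex, was at 12.21, 12.07 and 12.10 in young samples and at 12.27, 12.41 and 12.38 in old samples. The groups did not overlap, but the difference of 0.22 (SE 0.06, 95% CI 0.08 to 0.37) missed the threshold, with an FDR of 0.0747. This FDR became 0.0499 when only probe sets of log2 6 or more were tested. In the other alternatives it stayed above 0.05, at 0.144 with the methods' t-test and up to 0.226 without Old6.

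Within samples, the difference of if minus that of mys was -1.06, that of if minus rhea was -0.64 and that of rhea minus mys was -0.42. In none of these 3 did the age groups overlap (p = 0.1 each, the smallest that the exact permutation test allows). For if minus mys this was fixed in advance, since all old samples were lower for if and higher for mys.

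The other alpha subunits that pair with Mys gave further values. The gene mew, whose product acts mainly on the tendon cell side, was at 10.59, 10.94 and 10.63 in young samples and at 10.98, 11.24 and 11.22 in old samples, a difference of 0.43 (SE 0.13) that did not pass (FDR 0.111). Within samples its difference minus that of mys was -0.01 (p = 1, exact permutation test). The gene scb (scab) was called. It rose by 1.63 (SE 0.12, FDR 0.0032), or 3.09-fold, from 11.00, 10.92 and 11.00 to 12.40, 12.55 and 12.84. Within samples, the difference of if minus that of scb was -2.25, that of if minus mew was -1.05 and that of scb minus mys was 1.19. None of the 3 overlapped between the groups. For if minus scb and if minus mew this was fixed in advance, since all old samples were lower for if and higher for scb and mew. The alpha subunit gene ItgaPS4 was at 2.10, 2.11 and 2.11 in young samples and at 3.17, 4.65 and 5.84 in old samples. It met the 3 criteria (difference 2.45, SE 0.70, FDR 0.104) but did not pass an FDR of 0.05. All young samples and Old4 were under log2 4, so the size of its difference is not measured, and its old samples were more widely spread than those of any member. The second beta subunit gene, Itgbn, had a difference of -0.03 (95% CI -0.37 to 0.32, FDR 1).

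The adaptors that bind integrin-linked kinase were higher in old flies by similar amounts. The gene parvin rose by 0.30 (SE 0.04, FDR 0.00914), from 12.76, 12.72 and 12.72 to 12.98, 13.11 and 13.01. The gene stck, which encodes the LIM protein PINCH, rose by 0.31 (SE 0.03, FDR 0.00587), from 13.24, 13.31 and 13.20 to 13.54, 13.56 and 13.56. The difference of Ilk itself was 0.08 below either, and the age groups overlapped in both comparisons (p = 0.2 and p = 0.3, exact permutation test).

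**Figure D3:**
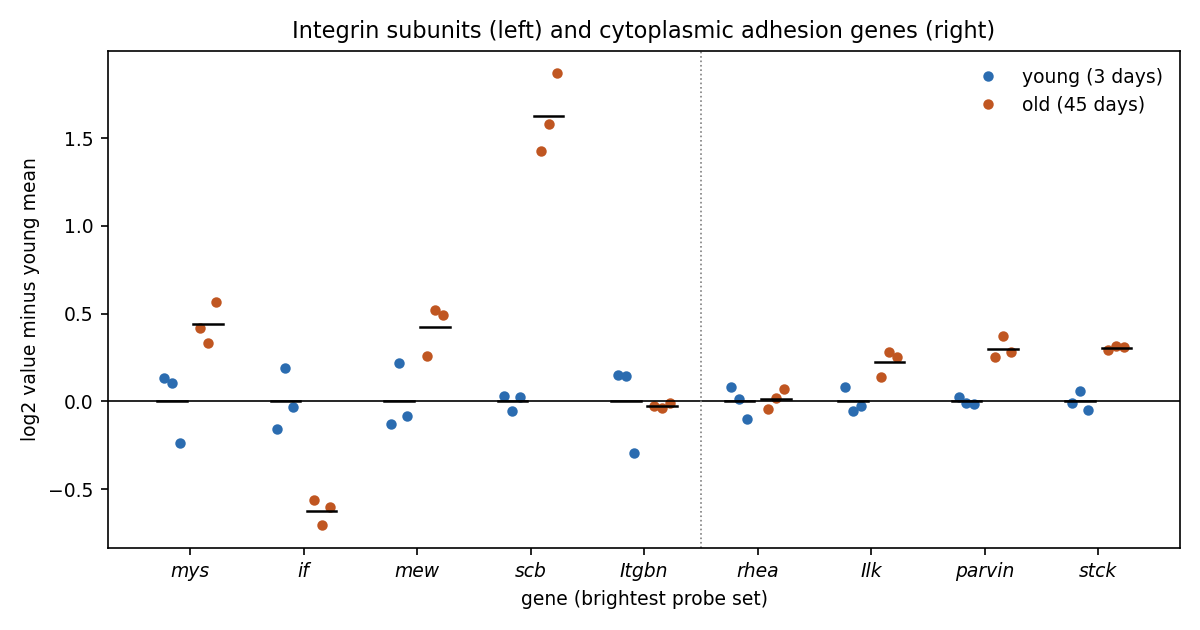
Values of integrin subunit genes (left of the dotted line) and of cytoplasmic adhesion genes (right) in each sample, as log2 value minus the mean of the young samples (vertical axis), with young samples in blue, old samples in orange and group means as black bars. The old points of if lie below 0, those of scb (mean 1.63) farthest above 0, and those of mys, mew, Ilk, parvin and stck above their young points, while rhea and Itgbn overlap.

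In a list of 17 other integrin adhesion genes on the array, 7 rose at an FDR under 0.05 and 0 fell. Of all probe sets, including those under log2 4, 6.91% rose and 5.82% fell at this FDR. Such a share was not computed for probe sets at log2 6 or more, where most genes of this list lie. Their median difference was 0.25 when each gene is represented by its brightest probe set. Over all probe sets at log2 6 or more the median was 0.04, and over all probe sets it was 8.17e-04. Of the 17, 3 were called, all higher: scb, ItgaPS4, whose young samples were not above background, and p130CAS, the last named after its values were seen (difference 1.03, FDR 0.0152). The probe set of Fit1 also carries the symbol of Ran, so its value cannot be assigned to one gene. The 4 attachment members had a median of 0.12, and the 6 Z-disc members one of -0.44, in which Zasp67 and Msp300 1632945_at lie under log2 4. The 4 other Z-disc members (Actn, Zasp52, Zasp66 and tmod) had a median of -0.64. Taking the mean of all probe sets of a gene moved the median of the 6 to -0.31.

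The extracellular matrix, which these integrins bind, was represented by a further list. Of 11 matrix genes on the array, 7 fell at an FDR under 0.05 and 0 rose, against 5.82% and 6.91% of all probe sets. Their median was -0.83, and 4 were called, all lower. Among probe sets at log2 6 or more, 6.29% were called lower. The largest called falls were those of the perlecan gene trol (from 10.44 ± 0.22 to 8.39 ± 0.08, SD, n = 3, FDR 0.00214) and of slow (from 4.11 ± 0.30 to 2.26 ± 8.31e-03, FDR 0.00410), which ended at the low end of the scale. The laminin subunits LanA, LanB1 and LanB2, named after their values were seen, fell by 0.83, 0.76 and 0.89. The muscle ligand Tig (tiggrin), which binds the integrin containing the product of if, was under log2 4 in both age groups. By brightest probe sets, 1 of 6 genes of tendon cells and muscle attachment fell at an FDR under 0.05 and 0 rose. Of the 6, 4 were under log2 4 in both age groups. The gene that fell was how (-0.49, FDR 0.00167), named after its values were seen. Another of the 3 probe sets of how was called in the opposite direction, higher in old flies.

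Among 11 other genes of the Z-disc, 5 fell and 2 rose at an FDR under 0.05, and the same number of 5 was called, all lower. Their median was -0.16. Of all probe sets, 5.82% fell and 6.91% rose at this FDR, and 2.96% were called lower. By the brightest probe set of a gene, the largest called falls were those of sls, a titin-like protein that anchors at the Z-disc (-3.66, SE 0.46, FDR 0.0105), and of the formin gene Fhos (-1.60, SE 0.14, FDR 0.00421). The order depends on the probe set, since another one of Mlp60A, 1626709_at, gave -4.39 (FDR 0.00945), from 6.42 to 2.03, and one of sls, 1628671_a_at, gave -4.86. Both were chosen after their values were seen. The difference of Actn minus that of sls was 2.71, without overlap. All 5 called genes (sls, Fhos, Mlp84B, Mlp60A and tn) and many genes of the filament lists are named by the study as changed in these same samples, so their direction is not independent evidence.

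Of 14 thin filament genes, 8 fell at an FDR under 0.05, 10 were called lower and the median was -1.78. The corresponding numbers were 8, 8 and -1.30 for 9 genes of the thick and connecting filaments. In neither list did a gene rise at this FDR, at which 5.82% of all probe sets fell and 6.91% rose. The share of all probe sets called lower was 2.96%. The brightest probe set of Tm1 differed by 0.06, whereas another, 1635584_s_at, gave -1.66 (FDR 0.00517) and was called. It was named after its values were seen. By brightest probe sets, the largest called differences were -6.88 for TpnC47D (FDR 0.0314) and -4.36 for Act88F (FDR 0.0771) among the former, and -6.42 for fln (FDR 0.117) and -5.16 for Unc-89 (FDR 0.000878) among the latter. A less bright probe set of Strn-Mlck, named after its values were seen, gave -6.23 (FDR 0.0777), against -1.22 for the brightest. Set against the myosin heavy chain gene Mhc within each sample (difference -1.30, FDR 0.0136), the differences of the members were smaller in size, by 0.70 for Zasp52, 0.63 for tmod and 1.03 for Zasp66, without overlap. For Actn the gap of 0.36 overlapped (p = 0.2, exact permutation test).

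The old samples also differed in their spread. For Act88F, a flight muscle actin, Old4 was at 11.71, Old5 at 8.19 and Old6 at 7.94, and for fln, a flight muscle thick filament protein, they were at 11.38, 4.82 and 5.28. In the members at log2 6 or more, the old samples lay within 0.45 of each other, and within 0.30 in Actn, 0.09 in Zasp52, 0.07 in tmod and 0.14 in if. Without Old4 the differences were -0.98 for Actn, -0.62 for Zasp52, -0.69 for tmod and -0.65 for if, each at least as large as with it. For Zasp66 1632121_a_at, which did not pass, the difference was -0.26 without Old4 and -0.28 with it.

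**Figure D4:**
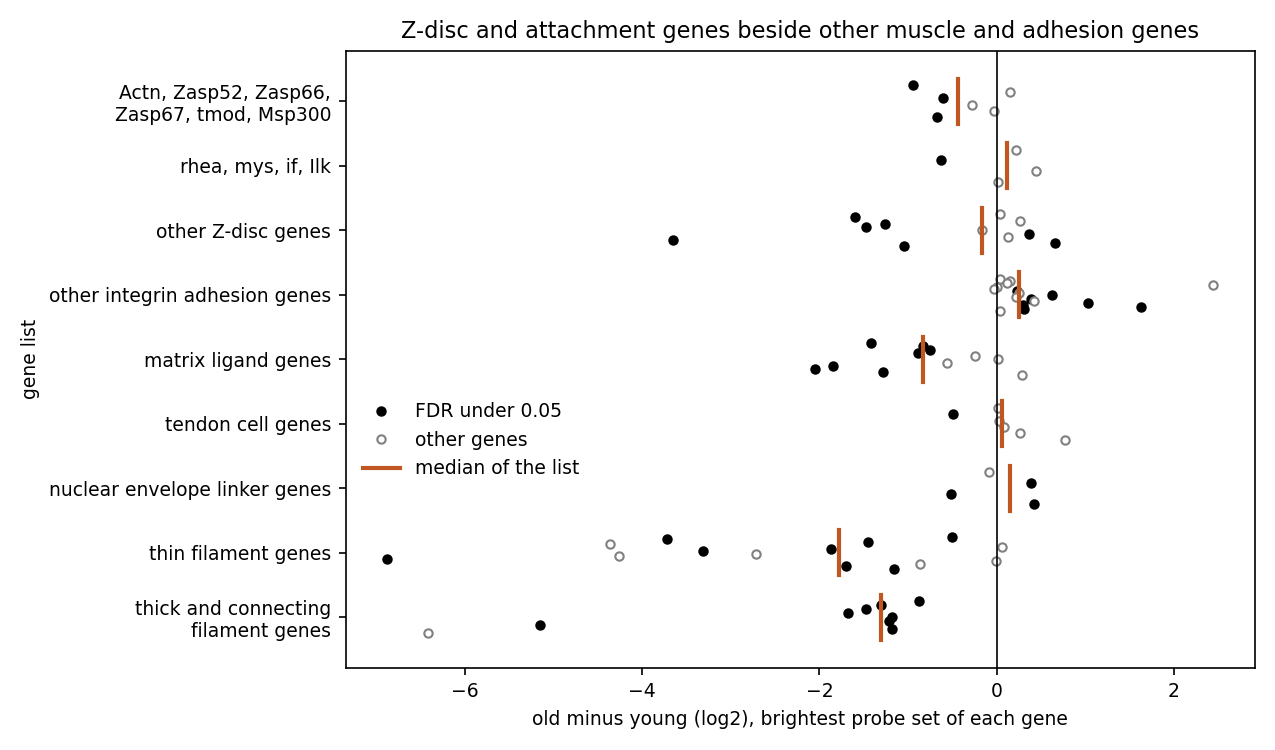
Old minus young difference (log2, horizontal axis) of each gene, taken from its brightest probe set, for the members (upper 2 rows) and for other lists of muscle and adhesion genes (vertical axis). Filled points passed an FDR under 0.05, open points did not, and orange bars are list medians, which were -0.44 and 0.12 for the members, 0.25 for other integrin adhesion genes and -1.78 and -1.30 for the filament lists.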

How the data were processed

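Total RNA of whole flies was amplified and hybridized by the authors to 6 arrays. The deposited log2 values were made by the authors with GCRMA in Partek Genomics Suite 6.5, which corrects background and brings arrays to a common distribution. Scans were not analysed here. Control probe sets (183 of 18952) were left out, with no filter on low values. The old minus young coefficient of each probe set was tested with limma 3.58.1 in R 4.3.3, and p-values were adjusted after Benjamini and Hochberg across the 18769 probe sets (FDR). limma replaced the SAM test of the methods, which was not run. The same model was applied to differences between probe sets of one gene. Differences between genes, chosen after values were seen, were tested by exact permutation. The procedure was tested on simulated data.

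Old columns carry numbers that differ from the labels, so they were assigned to the age group only. No batch is given. Members and gene lists were chosen with earlier results of these data known. All members are named, with direct partners and, from each other list, the pair of called genes with the largest rise and fall. Of 106 list genes, 103 were found on the array. Alternatives were the methods' t-test, a trended and robust prior, median centring, renewed quantile normalization, a minimum of log2 6, a floor of log2 4, a stricter FDR, averaged probe sets, and each sample left out.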

Additional observations from a re-analysis of the deposited data

How the results depend on the processing

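The 1 called probe set, Msp300 1625210_a_at, was not called with a floor of log2 4 (0 called), and neither were the 5 called pairs (0 called). A minimum of log2 6 took that probe set out before testing, so the 0 called there was fixed by the filter. The 5 called pairs were taken out as well, and 0 of the 4 member pairs left were called. The floor left 3 probe sets that fell at an FDR under 0.05, without Msp300 and if. Those higher at this FDR numbered 1 with the trended and robust prior and 2 with the minimum of log2 6. With a sample left out, between 4 and 5 fell. Of 132 repeated values for probe sets at log2 6 or more, 129 kept their direction. The exceptions were rhea, from -0.0345 (without Young3) to 0.0568, and Zasp66 1631326_at, from -0.50 to 0.0617 (without Young2). Direction also turned in probe sets at the low end, tmod 1639114_at from -0.011 to 5.98e-03, Msp300 1641672_at from -3.78e-03 to 0.0123, 1638426_at from -8.42e-03 to 0.0109 and 1641717_s_at from -0.0104 to 1.32e-04. No paired analysis was possible because the old columns carry numbers that are not those of the labels. The methods describe both ages as taken from the cultures of a replicate, so young and old samples may share cultures. Values near the low end cannot show a change.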
